A study of Danio rerio with 2 samples.

Results

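Claudins are small membrane proteins that cross the membrane several times and join like zippers between neighbouring cells to form the strands of tight junctions. Which claudins a cell makes sets how tightly an epithelium, a blood vessel or a myelin sheath is sealed and which ions can pass between its cells. In fish the family has many more genes than in mammals, and several of them carry letters instead of numbers because no single mammalian counterpart exists. The claudins of brain tissue are best known from the endothelium of the blood-brain barrier, from the lining of the ventricles and from myelin, whereas those of the skin form the barrier to the surrounding water.

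The 34 genes with a symbol beginning *cldn*, out of 32057 genes in the deposited tables, were followed through single-cell RNA sequencing of whole brains from 3-dpf zebrafish larvae. There were 2 libraries, 1 from homozygous *rb1* mutants (smu2/smu2) and 1 from siblings with the genotype label wt, both made with droplet chemistry that tags the 3′ end of each mRNA and counts it once by its unique molecular identifier (UMI). The gene *rb1* encodes the retinoblastoma protein, which restrains cells from entering the cell cycle. The number of larvae pooled in each library is not given in the sources used here, and both labels name the cell type as neuron although the tissue was whole brain. With 1 library per genotype no test between genotypes was possible, so levels are given as UMIs of a gene per 1000000 UMIs of all genes (CPM) with intervals that cover counting error only, and any difference between genotypes cannot be told apart from a difference between the 2 preparations.

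After the cell limits of the study, 7873 cells with 31879798 UMIs were retained in the mutant library and 7539 cells with 28774379 UMIs in the sibling library. Their medians were 3595 UMIs per cell in the mutant library and 3315 in the sibling library, and 16 barcodes occurred in both. *rb1* transcripts did not separate the libraries, with 174 UMIs (5.46 CPM) in mutant cells and 174 UMIs (6.05 CPM) in sibling cells. Where the smu2 lesion lies relative to the counted 3′ end was not examined, so this gene checks the labels neither way. Cells were assigned to types by gates of at least 3 marker genes with a UMI, none of them a claudin. Of the types so named, 18 had at least 20 cells in both libraries. Gated neurons made up 2740 of the mutant and 2560 of the sibling cells, and radial glia, retinal cells, mesenchyme and epidermis were also present, so the label of neuron did not describe either library as a whole.

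The claudins differed widely in how often they were caught. Among the 34 genes, 21 had at least 50 UMIs over the retained cells of both libraries and 13 had fewer. No UMI was found for *cldn10l2*, *cldn15b* and *cldn18* in any deposited barcode, and in the retained cells the limit that a count of 0 allows was 0.0941 CPM in the mutant library and 0.104 CPM in the sibling library. The gene table of RefSeq (assembly GRCz12tu) held 33 of the 34 members, 4 of them under another name: *cldnh* stands there as cldn3c, *cldnc* as cldn3d, *cldn17* as cldn8.3 and *cldn23a* as cldn23.1. A run of 4 neighbouring genes in that assembly consisted of *cldnj*, *cldne*, *cldnf* and *cldna*, and another run of 7 claudins held *cldnh*, *cldnc*, *cldnb* and *cldnd*. RefSeq listed 15 more claudins that are not among the members, and 5 of them occurred in the deposited tables under other symbols and were not counted here.

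The 21 better covered members divided by cell type in nearly the same way in both libraries. For 15 of the 21 the type with the highest level was the same in both: epidermis for 8, oligodendrocytes for 3, endothelium for 2, radial glia for 1 and photoreceptors for 1. The remaining 6 either had few UMIs, such as *cldn15a* and *cldn17*, or similar levels in several types, such as *cldn5a* and *cldnd1a*. The map of levels by type shows these blocks, with the epidermal claudins apart from those of endothelium, glia and progenitors.

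**Figure D1:**
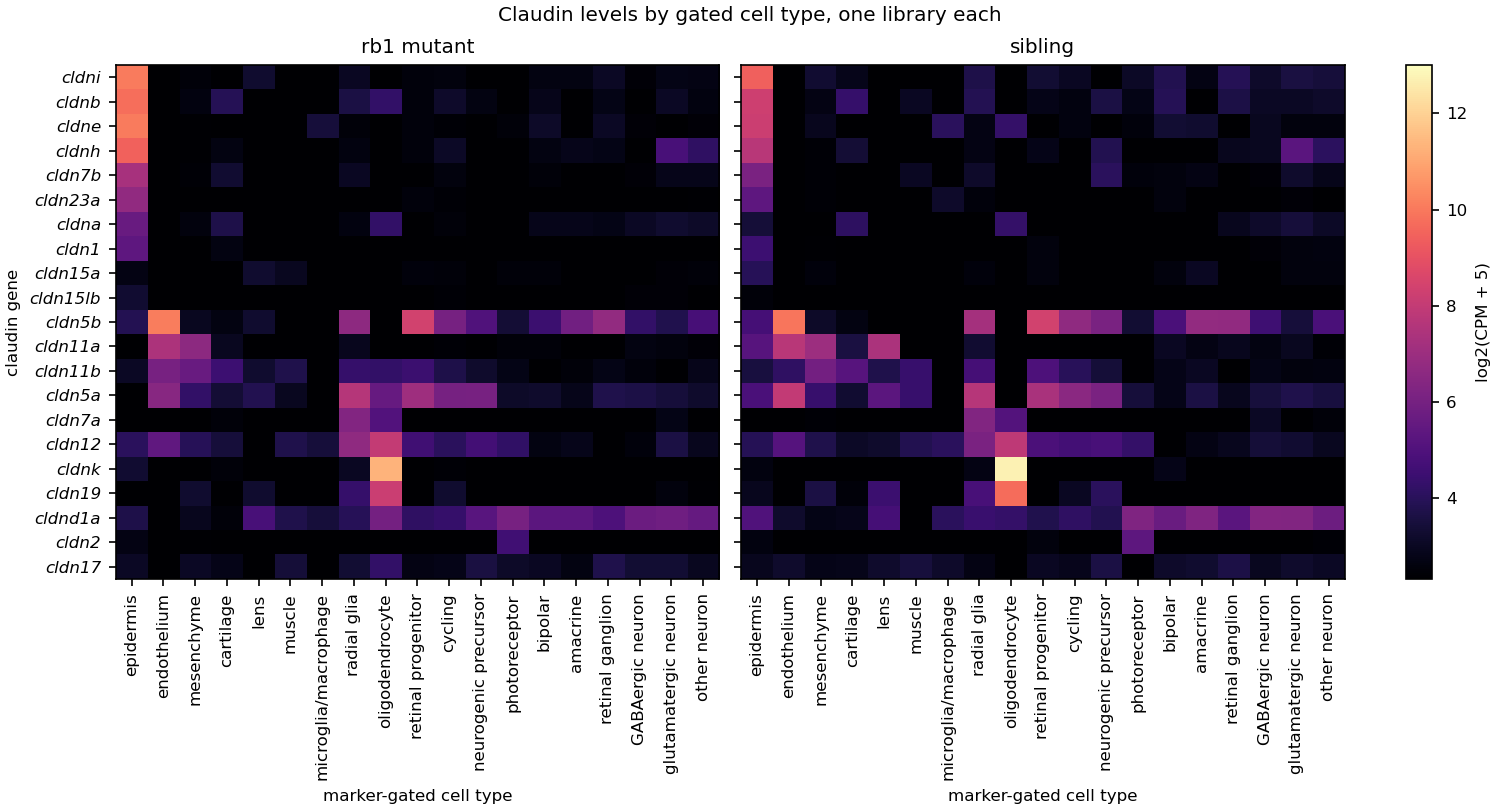
Levels of the 21 claudins with at least 50 UMIs (rows) in each gated cell type (columns), as log2(CPM + 5), with the *rb1* mutant library left and the sibling library right. Most of the upper rows are brightest in the epidermal column, *cldn5b* is bright in endothelium and retinal progenitors, and *cldnk* is brightest in the 10 mutant and 12 sibling oligodendrocytes.

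Over all retained cells, claudins made up less of the mRNA in the mutant library. The 34 members summed to 8287 UMIs (260 CPM) in mutant cells and 11944 UMIs (415 CPM) in sibling cells, a ratio of 0.626 (95% counting interval 0.609 to 0.644). The median ratio of the 26 members with at least 20 UMIs was 0.708, against 0.910 over all genes tested. Of these 26, 6 were at least 2-fold lower in the mutant library, where 7.6% of all genes were, and 2 were at least 2-fold higher, where 2.43% of all genes were. In such whole-library sums, fewer cells of a type and less RNA per cell cannot be told apart. The epidermal gate caught 80 cells in the mutant library and 733 in the sibling library. With at least 6 epidermal markers these were 30 mutant and 208 sibling cells. The gate markers were also found outside the gate, more often in the sibling library, and how far this added to the counts was not tested.

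The 6 lower members were mostly claudins of the skin. They were *cldni* (ratio 0.266), *cldn1* (0.322), *cldn23a* (0.466) and *cldn7b* (0.480), all led by epidermis, together with *cldn15a* (0.343) and the myelin claudin *cldnk* (0.360). The 2 higher members were *cldn15la* (ratio 7.94, 3.16 to 25.7) and *cldn15lb* (25.7, 6.80 to 218, from 2 sibling UMIs), but 41 of the 57 mutant *cldn15lb* UMIs lay in 1 cell. For *cldn1* the ratio was 0.890 when no upper limit was set on a cell's genes or UMIs, and for *cldni* it was 0.566. For *cldn15a* the direction turned, with a ratio of 5.83 without these limits. These limits matter for claudins because 62.2% of all claudin UMIs in the mutant library and 73.3% in the sibling library lay in barcodes above them, which were 245 barcodes in the mutant library and 341 in the sibling library and held 23.2% of all mutant and 33.3% of all sibling UMIs.

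Skin claudins formed the largest block. The 8 members *cldni*, *cldnb*, *cldne*, *cldnh*, *cldn7b*, *cldn23a*, *cldn1* and *cldn15lb* had their highest level in the epidermal gate of both libraries. For *cldn15lb* this rests on 3 mutant UMIs (4.97 CPM) and 2 sibling UMIs (0.629 CPM) in the gate, which are too few to place it with the skin. The summed claudin level was 4102 CPM in mutant and 1766 CPM in sibling epidermal cells, which was 22.1 times that of all other cells in the mutant and 7.14 times in the sibling library. At least 2-fold higher in epidermis were 10 of 22 members tested in the mutant library, where 13.9% of all genes were, and 9 of 20 in the sibling library, where 8.62% of all genes were.

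*cldne*, a marker of the periderm, reached 1063 CPM in mutant and 293 CPM in sibling epidermal cells, and these cells held 97.3% of its mutant and 95.2% of its sibling UMIs. *cldni* reached 1048 CPM in mutant and 680 CPM in sibling epidermis. *cldnb*, whose promoter is used in zebrafish to label the skin and the lateral line, reached 859 CPM in mutant and 306 CPM in sibling epidermis. The gate held at least 82.6% of the UMIs of each of these 3 genes in either library. *cldnh* was less restricted, since its level was 710 CPM in mutant and 207 CPM in sibling epidermis but the gate held 71.1% of its mutant and 76.1% of its sibling UMIs. *cldn7b*, a relative of the claudin that binds EpCAM in mammals, stood at 154 CPM in mutant and 65.8 CPM in sibling epidermis. *cldn23a* stood at 101 CPM in mutant and 36.8 CPM in sibling epidermis, and *cldn1*, the claudin without which newborn mice lose water through the skin, at 36.4 CPM in mutant and 17.9 CPM in sibling epidermis. In all 7 the counting interval of the ratio between the libraries lay above 1 in retained cells. In epidermal barcodes over the upper limits only *cldn1* of these was higher in the mutant library, at 84.5 CPM against 63.0 CPM. There *cldni*, *cldne*, *cldnb*, *cldnh*, *cldn7b* and *cldn23a* were lower. *cldne* stood at 522 CPM in mutant and 841 CPM in sibling barcodes, and *cldni* at 1474 CPM in mutant and 1650 CPM in sibling ones.

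Within the epidermal gate the median ratio of the members between the libraries was 1.78, against 0.778 over all genes tested there. Of 16 members with enough UMIs there, 8 were at least 2-fold higher, where 8.31% of all genes were, and 5 were at least 2-fold lower, where 30.1% of all genes were. The higher ones were *cldn1*, *cldn23a*, *cldn7b*, *cldna*, *cldnb*, *cldne*, *cldnf* and *cldnh*, and the 27 mutant UMIs of *cldna* lay in 3 cells. The lower ones were *cldn11a*, *cldn15a*, *cldn5a*, *cldn5b* and *cldnd1a*, of which *cldn11a*, *cldn5a*, *cldn5b* and *cldnd1a* had most of their UMIs in other types. Their sibling UMIs in the gate ranged from 34 for *cldn15a*, 31 of them in 1 cell, to 99 for *cldn11a*, and their mutant UMIs from 0 to 6.

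The cells caught by the epidermal gate were not alike in the 2 libraries. UMIs of *krt4*, a keratin of the skin surface, were found in 9.14% of the cells outside the gate in the mutant library and in 25.0% in the sibling library. The 8 gate markers together stood at 132 CPM in mutant and 353 CPM in sibling neurons. In cells with only 3 epidermal markers, the neuronal gene *elavl3* had a UMI in 35.5% of the 31 mutant and 64.5% of the 273 sibling cells. *epcam*, an adhesion molecule of epithelia and a gate gene that few other cells carried, had a UMI in 71.3% of the mutant and 29.6% of the sibling epidermal cells. More of the sibling cells with 3 markers thus carried a neuronal transcript, and the part of this in the ratio between libraries was not tested.

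The claudin level was lowest in cells with 3 markers and did not rise steadily with each further marker. In mutant cells with 3 epidermal markers it was 1610 CPM, and it lay between 4323 and 5673 CPM in those with 4 to 8. In sibling cells it was 488 CPM with 3 markers, 1779, 1286 and 2276 CPM with 4, 5 and 6, and 4166 and 3633 CPM with 7 and 8. Median depth differed too, at 4026 UMIs with 3 and 10216 with 8 markers in mutant cells, and at 3405 and 7741 UMIs in sibling cells. Among cells with at least 6 markers the claudin level was 5342 CPM in 30 mutant and 3107 CPM in 208 sibling cells, and the ratio between libraries was 1.72 in place of 2.32. In barcodes over the upper limits the order was the other way, with 3296 CPM in 65 mutant and 3992 CPM in 147 sibling epidermal barcodes. Over all deposited barcodes the ratio was 1.02 (0.997 to 1.03), so the difference within epidermis depended on which barcodes were kept.

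**Figure D2:**
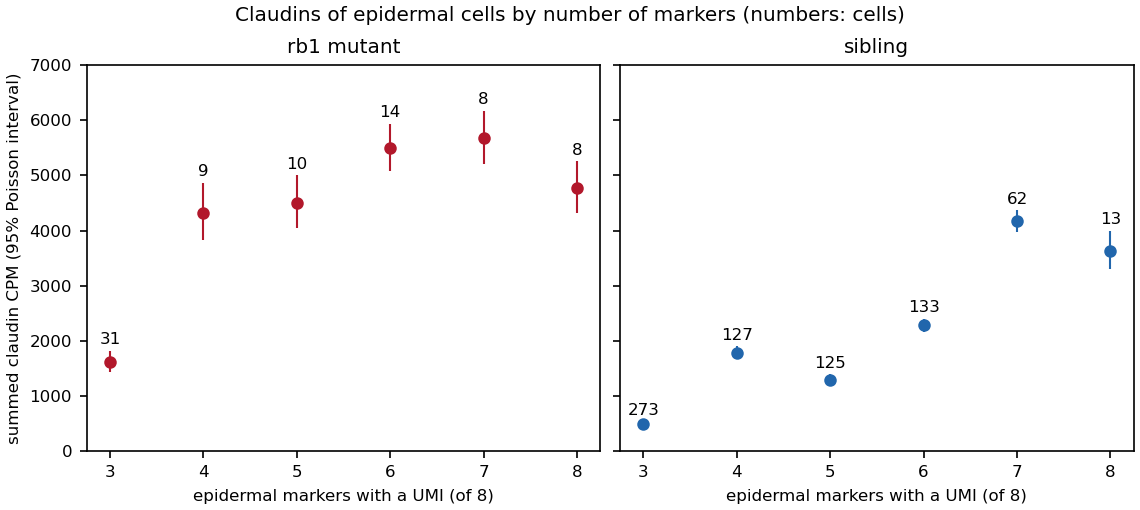
Summed CPM of all 34 claudins (vertical axis, with 95% Poisson intervals) in epidermal cells grouped by how many of the 8 gate markers had a UMI (horizontal axis), for the *rb1* mutant library (left) and the sibling library (right). The numbers above the points are cells, and both libraries were lowest in cells with 3 markers, at 1610 CPM in the mutant library and 488 CPM in the sibling library.

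Any claudin UMI was found in 80.0% of the mutant and 53.3% of the sibling epidermal cells, at median depths of 6268 UMIs in the mutant library and 3440 UMIs in the sibling library. After thinning every cell to 1000 UMIs the shares were 72.6% in mutant and 34.5% in sibling epidermis, with 7 mutant and 130 sibling cells left out as too shallow. In microglia and macrophages, blood-derived cells without tight junctions whose median depths were 9044 UMIs in the mutant library and 9340 in the sibling library, 3 of 21 mutant and 9 of 27 sibling cells had a claudin UMI before thinning. The skin claudins *cldni*, *cldne* and *cldnb* together stood at 3.03 CPM in mutant and 10.9 CPM in sibling neurons, cells that should lack them, and levels at or below these were read as background from free RNA.

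The skin claudins divided further between the outer and the basal layer. Epidermal cells were split by lists of 8 superficial and 8 basal genes, which gave 63 superficial and 7 basal mutant cells and 568 superficial and 49 basal sibling cells. The superficial genes *krt4* and *cyt1l* are also gate markers, while no basal gene is. Cells could thus enter the gate through superficial genes but not through basal ones, so the cell numbers of the layers are not compared. Another 10 mutant and 116 sibling cells had as many genes of one list as of the other and were left undecided. At least 6 epidermal markers were found in 166 of the 568 superficial and 29 of the 49 basal sibling cells. Their summed claudin level was 1951 CPM in superficial and 7786 CPM in basal cells. All sibling superficial cells had 1350 CPM and all sibling basal cells 6122 CPM. Mutant cells showed no such gap, with 3943 CPM in the 63 superficial and 3791 CPM in the 7 basal cells. Their superficial to basal ratio of summed claudins was 1.04 (0.912 to 1.19). For barcodes over the upper limits that ratio was 0.837 (0.803 to 0.872) among mutant and 0.866 (0.846 to 0.887) among sibling ones. How far free RNA of a surface keratin such as the gate gene *krt4* placed sibling cells in the superficial layer was not tested. *cldni* was higher in basal than in superficial cells, since it stood at 262 CPM in superficial and 3018 CPM in basal mutant cells, and at 145 CPM in superficial and 5435 CPM in basal sibling cells. The superficial to basal ratio was 0.0867 (0.0686 to 0.109) in the mutant library and 0.0267 (0.0238 to 0.0300) in the sibling library. *cldn1* went the same way in the sibling library, with 3.71 CPM in superficial and 145 CPM in basal cells, whereas the 7 basal mutant cells held 1 UMI of it. The undecided cells had 3968 CPM of *cldni* in the mutant library, from 310 UMIs and thus more than the 203 UMIs of the basal cells, and 349 CPM in the sibling library.

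*cldne* and *cldn23a* had the opposite distribution. *cldne* stood at 1312 CPM in superficial mutant cells with 0 UMIs in the basal ones, and at 379 CPM in superficial and 6.57 CPM in basal sibling cells. *cldn23a* stood at 133 CPM in superficial mutant and 47.3 CPM in superficial sibling cells, and had 0 UMIs in the basal cells of both libraries. With 7 and 49 cells, a count of 0 in basal cells allows up to 44.6 CPM in the mutant library and 9.86 CPM in the sibling library. *cldnb* was less divided, at 1011 CPM in superficial and 476 CPM in basal mutant cells and at 336 CPM in superficial and 210 CPM in basal sibling cells. *cldnh* was higher in superficial than in basal cells by a ratio of 20.1 in the mutant library and 1.89 in the sibling library, where cells with at least 6 markers gave 5.11 (2.63 to 11.4).

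The barcodes over the upper limits were split by the same lists, with more UMIs per barcode. Doublet removal did not cover them, and whether some held more than 1 cell was not tested. They held 39 superficial and 17 basal mutant and 98 superficial and 33 basal sibling barcodes. There the superficial to basal ratio of *cldni* was 0.172 in the mutant library and 0.189 in the sibling library, with the undecided barcodes at 3252 CPM in the mutant library and 1767 CPM in the sibling library. That of *cldn1* was 0.106 in the mutant library and 0.116 in the sibling library. The ratio of *cldne* was 714 in the mutant library, where basal barcodes held 1 UMI and the interval ran from 128 to 28232, and 377 (198 to 824) in the sibling library, and *cldn23a* again had 0 UMIs in the basal barcodes of both. For *cldnb* the ratio was 1.99 in the mutant library and 2.99 in the sibling library, and for *cldnh* 11.4 in the mutant library and 2.85 in the sibling library. The layers thus had the same order for these genes in both libraries, apart from *cldn1* in the 7 basal mutant cells. For *cldn7b* the order differed between retained cells and larger barcodes and not between the libraries. Its ratio was 0.831 (0.446 to 1.69) in mutant and 0.437 in sibling retained cells, but 1.85 in mutant and 1.31 in sibling larger barcodes. The interval in mutant retained cells included 1, so no order is read there.

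**Figure D3:**
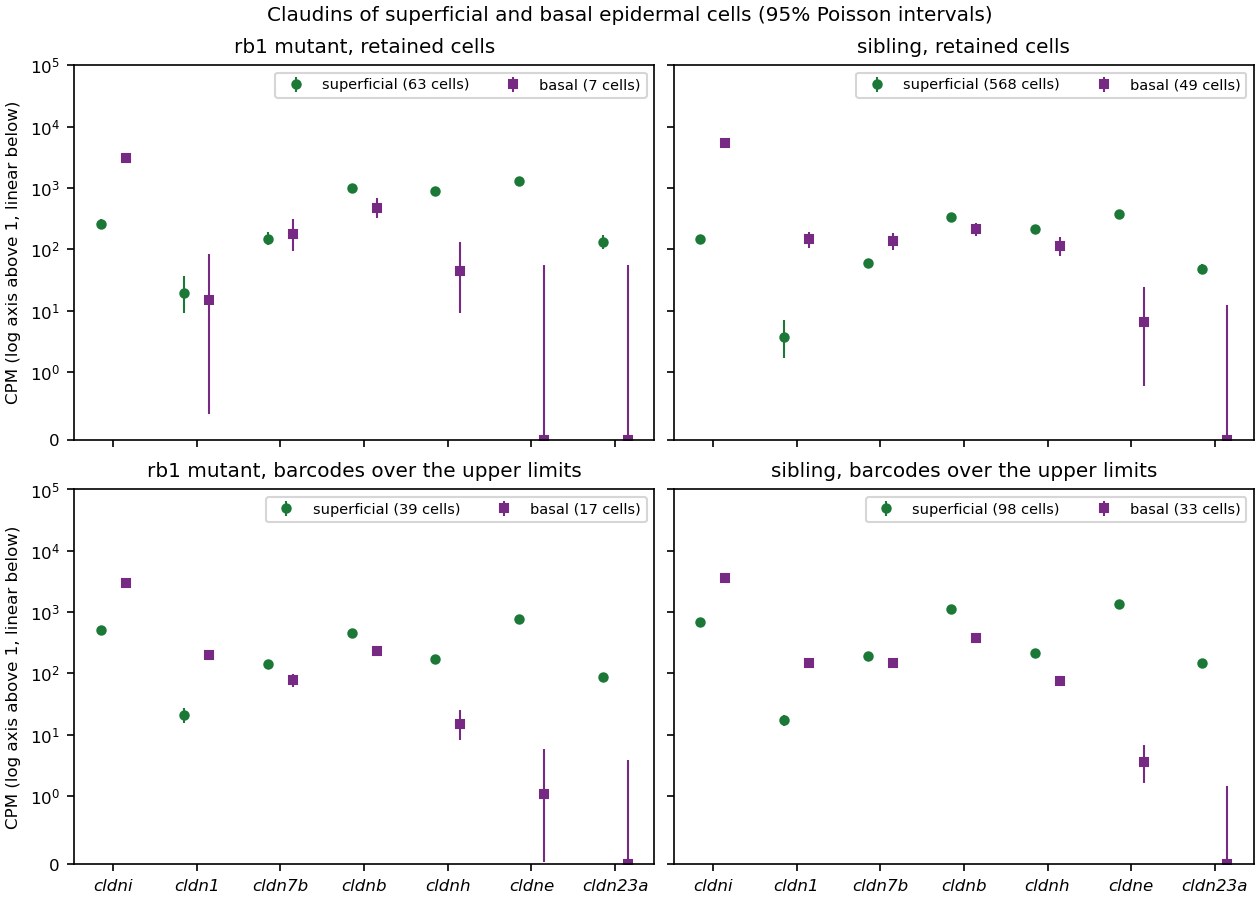
CPM of 7 claudins in superficial (circles) and basal (squares) epidermal cells with 95% Poisson intervals, on an axis that is logarithmic above 1 CPM and linear below, for the *rb1* mutant (left) and the sibling library (right), in retained cells (top) and in barcodes over the upper limits (bottom). *cldni* is higher in basal cells in all panels, at 3018 CPM in mutant and 5435 CPM in sibling retained cells, and *cldne* and *cldn23a* are at or near 0 there.

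Some skin claudins were found in the same barcodes over the upper limits, where doublets were not removed. Every larger barcode with at least 5 *cldn1* UMIs also had at least 5 *cldni* UMIs, which were 17 in the mutant library and 26 in the sibling library, where 29 of 65 mutant and 50 of 147 sibling epidermal barcodes had that many *cldni* UMIs. *cldn23a* went with *cldne* in 15 of 15 mutant and 50 of 51 sibling barcodes, where 27 mutant and 77 sibling barcodes had at least 5 *cldne* UMIs. Epidermal cells with at least 6 markers carried a median of 4 different claudins in the mutant library and 1 in the sibling library, and at most 7 in a mutant and 8 in a sibling cell, at median depths of 9272 UMIs in the mutant and 3832 UMIs in the sibling cells.

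Other tight junction genes were read from a list of 24, of which 23 were in the tables. Over all retained cells 0 of 22 tested were at least 2-fold higher in the mutant library, where 2.43% of all genes were, and 4 were at least 2-fold lower, where 7.6% of all genes were, with a median ratio of 0.875. The lower ones were *oclna* (0.445) and *oclnb* (0.481), which encode occludin, *lsr* (0.368), which encodes the angulin that marks the corners where 3 cells meet, and *marveld2b* (0.285), which encodes a tricellulin of the same corners. *marveld2b* had only 6 mutant and 19 sibling UMIs. The other tricellulin gene, *marveld2a*, went the other way at 1.44 (1.09 to 1.92), from 136 mutant and 85 sibling UMIs. In the epidermal gate 9 of 21 were at least 2-fold higher than in other cells in the mutant library, where 13.9% of all genes were, and 8 of 21 in the sibling library, where 8.62% of all genes were. At least 2-fold lower in the gate were 5 of 21 in the mutant library and 0 of 21 in the sibling library. The share of all genes that was lower there was not computed, so these counts are not read as a trait of junction genes. The ratios to other cells were 362 in the mutant library and 42.3 in the sibling library for *oclnb*, and 122 in the mutant library and 36.7 in the sibling library for *oclna*. For *tjp3*, which encodes a scaffold under the junction, they were 121 in the mutant library and 41.0 in the sibling library. The occludin genes thus stood higher inside the gate than outside it in both libraries, as the skin claudins did.

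Outside the skin, endothelium had the highest claudin level of the types with at least 20 cells. It stood at 1453 CPM in 21 mutant and 1477 CPM in 28 sibling cells, a ratio of 0.984 (0.819 to 1.18). *cldn5b*, a counterpart of the mammalian claudin that seals the blood-brain barrier, made up most of it, with 1092 CPM in mutant and 969 CPM in sibling endothelium. *cldn5a*, the other counterpart, stood at 84.6 CPM in mutant and 243 CPM in sibling endothelium, a ratio of 0.348 (0.164 to 0.670) from 11 mutant and 56 sibling UMIs. *cldn5b* UMIs were found in 17 of 21 mutant and 18 of 28 sibling endothelial cells, and those of *cldn5a* in 6 mutant and 12 sibling cells. At least 2-fold higher in endothelium than in other cells were 6 of 22 members in the mutant library, where 17.1% of all genes were, and 4 of 20 in the sibling library, where 13.9% of all genes were.

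*cldn5b* was also a claudin of the retina. In retinal progenitors it stood at 334 CPM in mutant and 332 CPM in sibling cells (ratio 1.01, 0.868 to 1.17), and because these were 165 mutant and 121 sibling cells they held more of its UMIs than endothelium did, 28.2% in the mutant library and 22.6% in the sibling library. *cldn5a* stood at 128 CPM in mutant and 159 CPM in sibling retinal progenitors. Both genes had a UMI in 55 of the 165 mutant and 49 of the 121 sibling cells. They were the 2 of 22 members at least 2-fold higher in retinal progenitors in the mutant library, where 6.3% of all genes were, and with *cldn12* the 3 of 20 in the sibling library, where 8.44% of all genes were.

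Cells outside the endothelial gate with at least 5 *cldn5b* UMIs, 65 in the mutant library and 81 in the sibling library, shared most of their leading genes. In both libraries these included *her12*, a gene of the Hes family that Notch signalling switches on, *hes2.2*, *olig2*, *fabp7a*, *crabp1a* and *tjp2b*, which encodes another junction scaffold. The genes *fabp7a*, *hes2.2* and *olig2* are markers in the gates for radial glia, retinal progenitors and oligodendrocytes. In the mutant library the first of the leading genes was *rlbp1a*, a gene of the visual cycle and of Müller glia. In retinal ganglion cells *cldn5b* stood at 102 CPM in both libraries, and in amacrine cells at 54.9 CPM in mutant and 105 CPM in sibling cells (ratio 0.523, 0.374 to 0.734).

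Radial glia, the cells that line the ventricles and give rise to neurons, had several claudins as a type. Single cells carried a median of 1 claudin in both libraries, and 78 of 316 mutant and 53 of 221 sibling cells had none. Their summed level was 534 CPM in 316 mutant and 578 CPM in 221 sibling cells, a ratio of 0.924 (0.835 to 1.02). The same 5 members, *cldn12*, *cldn19*, *cldn5a*, *cldn5b* and *cldn7a*, were at least 2-fold higher than in other cells, 5 of 22 in the mutant library, where 16.7% of all genes were, and 5 of 20 in the sibling library, where 13.5% of all genes were. *cldn5a*, which zebrafish need to inflate their brain ventricles, stood at 193 CPM in mutant and 199 CPM in sibling radial glia and had a UMI in 164 of 316 mutant and 106 of 221 sibling cells. No *cldn5a* UMI was found in the 21 mutant and 27 sibling microglia or in the 13 mutant and 14 sibling red blood cells.

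*cldn12*, a claudin of broad expression in mammals, was the 1 of these 5 members whose interval lay above 1 in radial glia, at 98.2 CPM in mutant and 65.3 CPM in sibling cells (ratio 1.50, 1.14 to 1.99). In cycling cells it was the other way, at 11.6 CPM in mutant and 20.3 CPM in sibling cells (ratio 0.571, 0.346 to 0.944). *cldn5b* in radial glia stood at 93.8 CPM in mutant and 144 CPM in sibling cells (ratio 0.649, 0.518 to 0.812). *cldn12* was found in 117 mutant and 64 sibling radial glia, and together with *cldn5a* in 72 mutant and 35 sibling ones. Whether the 2 genes met more often than their separate shares would give was not tested.

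*cldn7a* was the most restricted of the radial glial claudins. It stood at 76.8 CPM in mutant and 73.5 CPM in sibling radial glia, and this gate held 95.3% of its mutant and 85.7% of its sibling UMIs. Only 18 mutant and 10 sibling radial glia carried it, with up to 21 UMIs in 1 mutant and 26 in 1 sibling cell. The cells with at least 2 of its UMIs, 15 in the mutant library and 7 in the sibling library, were led by *gfap*, a gate gene and the intermediate filament of astroglia. In the sibling cells *wnt4b*, *ntn1b* and *spon1b*, which encode secreted signals, followed, together with the gene that RefSeq names cldn29. In the mutant cells *vim*, the amino acid transporter gene *slc7a10a* and *hoxb8a* were among the leading genes.

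In cycling cells the summed claudin level was 176 CPM in 493 mutant and 243 CPM in 207 sibling cells (ratio 0.723, 0.634 to 0.824). *cldn5a* stood there at 60.1 CPM in mutant and 90.3 CPM in sibling cells, and *cldn5b* at 59.7 CPM in mutant and 96.8 CPM in sibling cells. Both therefore lay below their sibling levels in cycling cells, with a ratio of 0.665 for *cldn5a* and 0.617 (0.496 to 0.767) for *cldn5b*, whereas in retinal progenitors the intervals of both ratios included 1.

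*cldnk* marked myelinating glia. The zebrafish gene is a claudin of oligodendrocytes and Schwann cells, and 93.8% of its mutant and 97.5% of its sibling UMIs lay in the 10 mutant and 12 sibling oligodendrocytes. The mutant oligodendrocytes held 82, 48, 29, 13, 5 and 3 UMIs, with 0 in the other 4. The sibling cells held 163, 111, 67, 43, 26, 25, 16, 12, 4 and 2 UMIs, with 0 in the other 2. The ranges overlapped, and the summed level was 2562 CPM in mutant and 6836 CPM in sibling oligodendrocytes (ratio 0.375, 0.314 to 0.446), an interval that leaves out the spread between so few cells.

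High *cldnk* went with *mbpb*, which encodes myelin basic protein. At least 5 *cldnk* UMIs were found in 5 mutant and 8 sibling cells, each of which had 59 or more *mbpb* UMIs, while the remaining cells had at most 21 in the mutant library and 39 in the sibling library. *cldn19*, a claudin of Schwann cells and kidney in mammals, stood at 285 CPM in mutant and 845 CPM in sibling oligodendrocytes and was found in 6 of 10 mutant and 11 of 12 sibling cells. *cldn12* stood at 256 CPM in mutant and 233 CPM in sibling oligodendrocytes. The mammalian myelin claudin has its counterparts in *cldn11a* and *cldn11b*, and these were led by other types.

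**Figure D4:**
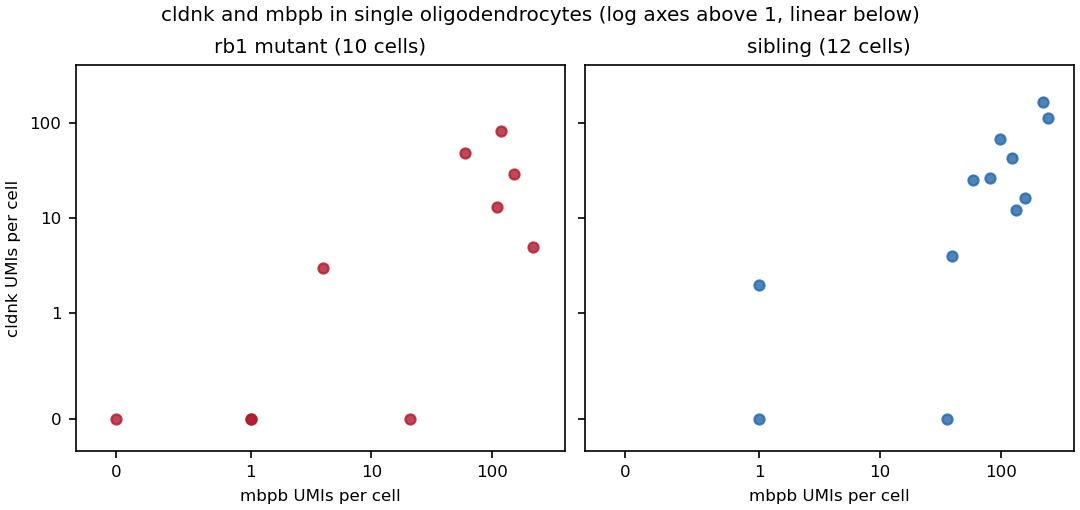
UMIs of *cldnk* (vertical axis) against UMIs of *mbpb* (horizontal axis) in each gated oligodendrocyte, on axes that are logarithmic above 1 and linear below, for 10 *rb1* mutant cells (left) and 12 sibling cells (right), of which some coincide near 0. In both libraries the cells with at least 5 *cldnk* UMIs have 59 or more *mbpb* UMIs.

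*cldn11a* was a claudin of mesenchyme and endothelium and *cldn11b* one of mesenchyme. In mesenchyme *cldn11a* stood at 92.4 CPM in mutant and 123 CPM in sibling cells (ratio 0.751, 0.662 to 0.851), and *cldn11b* at 45.5 CPM in mutant and 56.5 CPM in sibling cells (ratio 0.806, 0.670 to 0.967). They were the 2 members at least 2-fold higher in mesenchyme in either library, out of 22 in the mutant library, where 13.7% of all genes were, and out of 20 in the sibling library, where 12.3% of all genes were. *cldn11a* also reached 169 CPM in mutant and 209 CPM in sibling endothelium, from 22 mutant and 48 sibling UMIs, whereas *cldn11b* had 8 mutant and 3 sibling UMIs there. Mesenchymal cells with at least 5 of its UMIs, 29 in the mutant library and 35 in the sibling library, were led in both by the gate genes *fmoda* and *lum* and by *col1a1a*, genes of fibrous connective tissue. In lens cells *cldn11a* had 0 UMIs in the mutant library and 38 UMIs in 2 cells of the sibling library.

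Photoreceptors had the highest level of *cldn2*, whose mammalian counterpart forms pores for sodium and water in the kidney. It stood at 19.2 CPM in 375 mutant and 35.9 CPM in 282 sibling photoreceptors, which held 54.4% of its mutant and 83.7% of its sibling UMIs. Only 28 of these mutant and 35 of these sibling photoreceptors had a UMI of it, so most were without one. Of the other mutant UMIs, 23 lay in 6 cells that no gate named, and 1 cell held 15. The retained cells with a *cldn2* UMI, 37 in the mutant library and 41 in the sibling library, were led in both by *pde6ha*, *opn1lw2*, *arr3a*, *gngt2b* and *rcvrn2*, genes of cone phototransduction, of which *arr3a* is a gate gene.

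*cldnd1a* was a claudin of neurons, though not of neurons alone. This gene, a distant relative that contains a claudin domain, stood at 47.6 CPM in mutant and 75.3 CPM in sibling GABAergic neurons (ratio 0.632, 0.490 to 0.813). In glutamatergic neurons it stood at 52.0 CPM in mutant and 73.8 CPM in sibling cells (ratio 0.704, 0.538 to 0.916), and in other neurons at 41.8 CPM in mutant and 48.7 CPM in sibling cells (ratio 0.858, 0.687 to 1.07). It was found in 14.6% of the mutant and 18.1% of the sibling GABAergic neurons, at median depths of 3202 UMIs in the mutant library and 2944 UMIs in the sibling library, and after thinning in 5.00% of the mutant and 7.62% of the sibling ones. In microglia and macrophages 1 of 21 mutant and 2 of 27 sibling cells had a UMI, at median depths of 9044 UMIs in mutant and 9340 UMIs in sibling cells. Their intervals, 0.12% to 23.8% in the mutant and 0.91% to 24.3% in the sibling library, include the shares of the neurons, so no background level was taken from them. Lens cells had a UMI of it in 9.43% of the mutant and 10.9% of the sibling cells. In photoreceptors its level was 61.4 CPM in mutant and 70.9 CPM in sibling cells, and in amacrine cells 35.0 CPM in mutant and 72.0 CPM in sibling cells (ratio 0.485, 0.319 to 0.738). Neurogenic precursors were the exception, with 22 UMIs (31.9 CPM) in mutant and 5 UMIs (9.49 CPM) in sibling cells (ratio 3.36, 1.24 to 11.4).

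Over all types the summed claudin level was lower in the mutant library nearly throughout. Of the 18 types with at least 20 cells in both libraries, 17 had a ratio below 1 and in 11 of these the counting interval lay below 1. The median ratio of all genes over all retained cells was itself 0.910. Outside epidermis no such median is given here for each type, so these counts are not read as a trait of claudins. Only epidermis, at 2.32 (2.21 to 2.44), lay above. The lowest ratios were those of lens at 0.215 (0.105 to 0.405), from 12 mutant and 59 sibling UMIs, and of amacrine cells at 0.496 (0.390 to 0.631). Of the 59 sibling lens UMIs 38 were *cldn11a* in 2 cells, and without *cldn11a*, a choice made after seeing the data, the lens ratio was 0.605 (0.271 to 1.29). GABAergic neurons had a ratio of 0.637 (0.527 to 0.768) and glutamatergic neurons of 0.738 (0.619 to 0.879). Since the skin markers and claudins stood higher in sibling than in mutant neurons, the sums were repeated without the 8 members led by epidermis, a choice made after seeing the data. The 17 other types then all had a ratio below 1, and 7 intervals lay below 1. Over all deposited barcodes 14 of the 18 types had a ratio below 1, with lens at 1.04 and cartilage at 2.12.

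Counted by gene and type outside epidermis, few claudins passed 2-fold. Of 64 pairs of a member and a type with at least 20 UMIs, 1 was at least 2-fold higher in the mutant library, where 5.54% of all such pairs were, and 6 were at least 2-fold lower, where 6.7% were. The count of higher pairs thus lay below the share of all pairs by few pairs. That of lower pairs lay above it by few pairs, some of them at background levels, so it is not read as an excess. The higher pair was *cldnd1a* in neurogenic precursors. The lower pairs were *cldn5a* in endothelium, *cldn5b* in neurogenic precursors, *cldnd1a* in amacrine cells, *cldn11a* in lens, and *cldni* in mesenchyme and in other neurons. The 2 pairs of *cldni* stood at no more than 6.09 CPM in either library, levels read above as background. *cldn11a* in lens had its UMIs in 2 sibling cells.

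A few cells outside the expected types carried epithelial claudins in number. *cldnh* had at least 2 UMIs in 15 mutant and 25 sibling cells gated as neurons or not gated, with up to 25 UMIs in 1 mutant and 22 in 1 sibling cell. Their leading gene was *pvalb5*, a parvalbumin, in both libraries. In the sibling cells *ompb*, the olfactory marker protein of sensory neurons in the nose, came next. *cldnb* had at least 2 UMIs in 9 mutant and 9 sibling cells without a gate. In the mutant these were led by *stm*, which encodes starmaker of the otolith, with *agr2* and *epcam* among the leading genes, and in the sibling library by *gng13a*, with *pou2f3*, a transcription factor of chemosensory epithelial cells in mice. These sets were too small to compare between the libraries.

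The largest difference of a member lay in 8 barcodes. *cldn15la*, whose promoter labels the gut epithelium in zebrafish, had 1173 UMIs over all deposited barcodes of the mutant and 11 in the sibling library. In the mutant library 8 barcodes with at least 5 UMIs held 1141 of these, or 97.3%, and 1 of them held 604. These 8 barcodes had from 2623 to 437598 UMIs of all genes, where the median of the deposited mutant barcodes was 3770. Whether each of them was 1 cell was not tested. The same 8 barcodes held 325 of 425 UMIs of *cldn15a*, 304 of 366 of *cldnc* and 118 of 265 of *cldn15lb*. Their leading genes were *fabp1b.1*, *fabp2*, *lgals2b*, *apoc2* and *rbp2a*, genes of fat and retinol handling known from the gut, and 3435 of all 3673 mutant UMIs of *fabp2* lay in these barcodes. Of the 8 barcodes 4 were over the upper limits, and in the retained cells *cldn15la* was left with 44 UMIs in the mutant library and 5 in the sibling library. Only 1 sibling barcode had as many as 5 *cldn15la* UMIs.

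For the 5 members with most UMIs, the genes outside the family with the most similar levels were sought over 36 points, which were 18 types in each of both libraries, as Pearson correlations of log2(CPM + 5) given without a test because the points share libraries and free RNA. *cldni* was closest to *scel* (r = 0.973), *ponzr5* (0.970) and *anxa1d* (0.968), and *cldnb* to *cd9b* (0.953), *cdh1* (0.951), which encodes E-cadherin, and *spint2* (0.948). *scel* is on the superficial list although *cldni* was higher in basal cells, because epidermis entered as 1 type and its layers were not points. *cldn5a* was closest to *notch1b* (0.878), a Notch receptor, *ildr2* (0.869), which encodes an angulin of cell corners, and *nrarpb* (0.833), a target of Notch. *cldn5b* had no close partner, with *arhgef7b* (0.799), *wasf3b* (0.797) and *six3a* (0.763) first. *cldnd1a* was closest to *AP3B2* (0.932), a neuronal adaptor subunit, *EML6* (0.926) and *ccdc50* (0.922).

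The remaining 13 members were too sparse to describe by type. They were the 3 at 0 in every barcode and *cldn10a*, *cldn10b*, *cldn15la*, *cldn23b*, *cldnc*, *cldnd*, *cldnd1b*, *cldnf*, *cldng* and *cldnj*. Of these, *cldnf* went with the skin claudins, with 17 of 17 retained mutant and 18 of 19 retained sibling UMIs in the epidermal gate. *cldn10a* and *cldn10b*, counterparts of a claudin that forms ion pores in the mammalian kidney, had 1 and 10 deposited UMIs in the mutant library and 0 in the sibling library. *cldn17*, which passed the minimum with 107 mutant and 80 sibling UMIs, had no more than 2 UMIs in any cell and was spread over nearly all types.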

How the data were processed

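Whole brains of 3-dpf larvae were dissociated with papain and sequenced as 1 library per genotype. The authors counted UMIs per gene and barcode with Cell Ranger (5.0.0 per the file headers, 5.1.0 in the submitters' processing notes, which also name Seurat 3.1.1) on build GRCz11, and these raw counts were deposited and used here. CPM were computed from the deposited counts as UMIs of a gene per 1000000 UMIs of the cells summed. Dense tables of the same libraries were not used.

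The study's limits were applied, namely no fewer than 200 and no more than 3000 genes, fewer than 20000 UMIs and a mitochondrial share below 15%. Doublets were taken as the top 7.5% by Scrublet score (scanpy 1.11.5), where the study used DoubletFinder. The study's stated cell number does not say which libraries it covers, so it was not compared with the cells kept here. A cell took the type with most markers having a UMI, at least 3, and ties were left out. Intervals are exact at 95% (Poisson for CPM, conditional binomial for ratios, Clopper-Pearson for shares) and cover counting error only. A gene counted as past the fold at a CPM ratio of at least 2 or at most 0.5, among genes with at least 20 UMIs, and a count of 0 was given a floor of 3 counts. All symbols beginning *cldn* were accounted for, those with at least 50 UMIs were described by type, and for the 5 with most UMIs the 3 most similar genes with at least 100 UMIs were named. UMIs tag 3′ ends, so levels of different genes were not ranked. Alternatives were other cell limits, gates, clustering, scalings, count minimums and thinning to 1000 UMIs. The scripts (Python 3.11.15, scipy 1.17.1, numpy 2.4.6, matplotlib 3.10.9) were tested on simulated data. The members, gene lists and gates were chosen with earlier results of these data known. No coordinates are given because the RefSeq table is of another assembly.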

Additional observations from a re-analysis of the deposited data

Results flagged for a closer look

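Some ratios between the mutant and the sibling library went in different directions in different types. The differences between types were not tested, and with 1 library per genotype no library could be compared with others of its group. The summed claudin ratio was 2.32 in epidermis and 0.215 in lens, the lowest of the types whose interval lay below 1. Of the 59 sibling lens UMIs 38 were *cldn11a* in 2 cells, and without *cldn11a* the lens ratio was 0.605. *cldn12* had a ratio of 1.50 in radial glia and 0.571 in cycling cells. *cldnd1a* had a ratio of 3.36 in neurogenic precursors, against 0.306 in epidermis, 0.485 in amacrine cells, 0.632 in GABAergic neurons and 0.704 in glutamatergic neurons. *cldni* had a ratio of 1.54 in epidermis, against 0.124 in mesenchyme and 0.267 in other neurons.

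Barcodes over the upper limits, which no comparison of retained cells used, held 62.2% of the claudin UMIs of the mutant and 73.3% of those of the sibling library. In these barcodes, of 25 members with at least 20 UMIs, 6 were at least 2-fold higher in the mutant library and 5 at least 2-fold lower, the 5 being *cldn11a*, *cldn23a*, *cldnb*, *cldne* and *cldnf*. The shares over all genes were not computed for these barcodes, and 65 mutant and 147 sibling ones were epidermal, so the counts are not read as a trait of claudins. Of the higher ones, the ratio was 27.0 for *cldn15a*, 11.2 for *cldn15lb*, 6.53 for *cldnc*, 5.48 for *cldn2* and 5.04 for *cldn7a*. For *cldn15la* the ratio was 548 (187 to 2661) against a floor of 3 counts in the sibling library, where it had 0 UMIs in such barcodes. The 8 mutant barcodes with gut genes described above, 4 of them over the limits, held 1141 of the 1173 deposited mutant UMIs of *cldn15la*. They also held 325 of 425 of *cldn15a*, 304 of 366 of *cldnc* and 118 of 265 of *cldn15lb*.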

How the results depend on the processing

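With 1 library per genotype, leaving out a replicate was not possible, and precision is limited by the UMIs behind each value. No paired analysis was possible because each genotype has 1 library. Of 526 values under 15 alternative settings, 376 stayed within their interval or their margin, 140 moved beyond it and 10 turned in direction, and of 105 ratios of single members 70 stayed, 32 moved and 3 turned. Of the 526 values 113 were marked as main results, and 51 of these 113 moved or turned. The cause of these moves was not tested. The summed ratio between libraries, 0.626, was 0.577 without upper limits on a cell's size, 0.506 over all deposited barcodes, 0.649 with at least 500 genes and 0.688 scaled by the median gene ratio. The number of members at least 2-fold higher was 4 without upper limits, 4 over all deposited barcodes and 1 with a minimum of 50 UMIs. The shares of all genes were not computed under these settings, so these counts are not read as a trait of claudins. Without upper limits *cldn15a* turned to 5.83 and *cldn5b* to 1.00, and over all deposited barcodes *cldn15a* stood at 5.93.

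In mutant epidermis the claudin level was 3342 CPM without upper limits, 3410 CPM over all deposited barcodes, 2663 CPM with at least 2 markers, 5044 CPM with at least 4, 4915 CPM by Leiden cluster and 5342 CPM with at least 6 markers, a gate chosen after seeing the data. In sibling epidermis it was 3097, 3360, 1272, 2374, 2068 and 3107 CPM under these settings, and 1702 CPM with at least 500 genes, 1840 CPM without doublet removal and 1710 CPM after thinning. The ratio of epidermal to other cells in the mutant library was 14.6 without upper limits, 15.1 over all deposited barcodes, 15.0 with at least 2 markers, 26.1 with at least 4, 27.6 by Leiden cluster, 25.2 with at least 6 and 24.3 after thinning. In the sibling library it was 12.2 without upper limits, 13.1 over all deposited barcodes, 5.17 with at least 2 markers, 9.25 with at least 4, 9.82 by Leiden cluster, 10.25 with at least 6, 7.47 without doublet removal and 5.96 when cells with 3 markers of another type were left out. The share of epidermal cells with a claudin UMI was 100% in mutant and 72.1% in sibling cells with at least 6 markers, and 34.5% in sibling cells after thinning.

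The ratio between libraries within epidermis was 1.08 without upper limits, 1.02 over all deposited barcodes, 2.17 without doublet removal, 2.09 with at least 2 and 2.13 with at least 4 markers, 2.45 when cells with 3 markers of another type were left out, 2.98 scaled by the median gene ratio, 2.45 after thinning, 1.72 with at least 6 markers and 0.796 without the 8 members led by epidermis, which takes out the skin claudins themselves and was also chosen after seeing the data. Cartilage turned to 2.82 without upper limits, 2.12 over all deposited barcodes and 1.12 by Leiden cluster. Lens stood at 0.605 without *cldn11a* and turned to 1.04 over all deposited barcodes, bipolar cells turned to 1.01 by Leiden cluster and other neurons to 1.04 with at least 4 markers. By Leiden cluster 11 of the 15 types with a value had a ratio below 1.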
